A study of Mus musculus with 3 samples.

Results

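The genes described here are 10 components of the p53 and cell senescence pathways of the mouse: Trp53, Mdm2, Cdkn1a, Cdkn2a, Cdkn2b, Gdf15, Ccng1, Bbc3, Bax and Sesn2. They were taken by name, through the RefSeq accession that each array file gives for a probe, and every probe of each gene was kept. The 10 genes have 13 probes, of 18951 named genes and 41171 probes on the array. All 13 probes were well above background on all 3 arrays, none was saturated, and no gene was lost to a filter. RNA from 3 cultures was hybridised to 1 one-colour array each. The 7-factor culture consisted of fibroblasts from E13.5 embryos of ICR mice, an outbred strain, infected with retroviruses carrying Pax8, Nkx2.1 and Foxe1, which act in the thyroid, together with Oct3/4, Sox2, Klf4 and c-Myc, the set used to make pluripotent cells. The 8-factor culture received the same viruses plus Hhex. Both were kept for 1 week in low-glucose medium with 10% serum and for another 2 weeks in medium with 1 U/mL thyroid stimulating hormone, 1 µg/mL potassium iodide, 10% serum and N2/B27 supplements, and were collected at 21 days. The control was a primary culture of thyroid follicular cells of adults of the same strain, grown in that second medium for 1 week. All 3 cultures thus shared the hormone, the iodide and the serum. The labels name no sorting of infected cells, and an array of uninfected fibroblasts was not analysed here, so a difference from primary cells holds cell type, donor age, time in culture and infection together. Each group holds 1 array, so no test between groups was possible and no p-value is given.

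The transcription factor p53, encoded by Trp53, is held at a low level by the ubiquitin ligase Mdm2, whose own gene p53 activates. Upon DNA damage or oncogene activity p53 escapes this control and switches on genes that stop the cell cycle (Cdkn1a), that let the mitochondria release death signals (Bbc3, Bax), that damp the response (Mdm2, Ccng1) or that restrain growth signalling (Sesn2). Cdkn2a and Cdkn2b lie next to each other and encode the Ink4 inhibitors of cyclin D kinases, and an overlapping reading frame of Cdkn2a encodes Arf, which binds Mdm2. Their products build up when fibroblasts age in culture, and they and p53 are known barriers to the making of pluripotent cells with Oct3/4, Sox2, Klf4 and c-Myc. Gdf15, a secreted member of the TGF-beta superfamily, is induced by p53 and by other stress pathways.

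The induced cultures held more RNA of Cdkn2a, Cdkn1a, Ccng1 and Bbc3 than primary thyroid cells, by 9.04-, 3.89-, 3.17- and 2.38-fold with 7 factors and by 9.69-, 2.64-, 2.57- and 2.68-fold with 8 factors. Gdf15 went the other way and was 19.3-fold and 24.8-fold lower in the induced cultures. Bax was at nearly the same level in the 7-factor culture and in primary cells and stood 3.26-fold above primary cells with 8 factors. Mdm2, Cdkn2b and Sesn2 stayed within 2-fold in both comparisons. The 2 probes of Trp53 disagreed on the direction.

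The promoters of the genes are shown first, because p53 acts on its targets through a sequence that can be read there. A p53 site consists of a pair of half-sites of 10 bases, each with a core C and G. The 250 bases before each transcription start were searched on both strands, in the RefSeq promoter set of build GRCm38.p6, which holds 15 such windows for the 10 genes and 32851 in all. A pair of half-sites with no gap, both core letters kept and at most 2 other mismatches was present in 89 windows (0.271% of all), among them 2 of the 15, those of Cdkn1a and Ccng1, with 1 mismatch each. Both are given 5′ to 3′ on the strand of the gene, with 20 bases on either side and the paired half-sites in capitals. The Cdkn1a stretch is chr17:29090908-29090967 on the plus strand, with the site 51 to 32 bases before the upstream of its 2 starts. The Ccng1 stretch is chr11:40755442-40755501 on the minus strand, with the site 195 to 176 bases before the start.
Cdkn1a: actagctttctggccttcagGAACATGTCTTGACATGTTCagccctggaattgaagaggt
Ccng1: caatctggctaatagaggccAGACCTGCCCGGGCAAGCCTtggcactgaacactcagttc

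A perfect single half-site was far more common, in 7.13% of all windows. It was present in 5 of the 15 windows, 1 each of Bax, Ccng1, Cdkn1a, Mdm2 and Trp53. The stretches of the 3 genes without a paired site are shown for comparison, with the half-site in capitals: Mdm2 at chr10:117710915-117710964 on the minus strand, Bax at chr7:45467070-45467119 on the minus strand and Trp53 at chr11:69580264-69580313 on the plus strand.
Mdm2: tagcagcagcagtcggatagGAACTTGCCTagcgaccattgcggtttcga
Bax: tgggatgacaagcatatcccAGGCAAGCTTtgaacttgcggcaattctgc
Trp53: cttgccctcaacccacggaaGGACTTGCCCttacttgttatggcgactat

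Other short motifs were read in the same windows. The E-box CACGTG, which Myc can bind, was in 1 window each of Bax, Bbc3 and Gdf15 and in 6.02% of all windows. The cyclic AMP element TGACGTCA was in the Cdkn2b window, 46 to 39 bases before its start, and in 1.55% of all windows. The ATF4 element TGATGCAA was in none of the 15 windows and in 0.791% of all. Windows with the CCAAT box (CCAAT) numbered 6 of 15 against 33.8% of all, those with the GC box (GGGCGG) 8 of 15 against 32.7%, and 1 with TATAAA, that of Trp53, against 12.4%. A match is a run of letters and not a bound site, and p53 sites of several of these genes are known to lie outside such windows, for example within the gene in Mdm2.

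The 2 induced arrays lay on 1 slide and were read in 1 scan, and the primary array lay on another slide and was read in another scan, so slide and group cannot be told apart in comparisons with primary cells. The 75th percentile of the signal was 2190, 2535 and 504 units on the 7-factor, 8-factor and primary arrays. Spots well above background made up 78.2%, 78.2% and 64.2%. Levels below are log2 signals minus the 75th percentile of the array, so a level of 0 equals that percentile, and levels are compared between arrays for 1 probe and never between probes. The label of the induced cultures was checked against thyroid markers: the summed signal of 9 marker genes was 1.86 and 2.33 times the 75th percentile with 7 and 8 factors and 521 times in primary cells. Of the 9 markers, 7 were well above background with 7 factors, 6 with 8 factors and 9 in primary cells. The 9 include the delivered Pax8, Nkx2.1 and Foxe1. Foxe1 alone gave 1.65 and 2.18 of the sums in the induced cultures, and the 6 markers that were not delivered summed to 0.19, 0.13 and 504. Tg, at a level of 8.89 in primary cells, made up most of the 504. The delivered Pax8 was at -6.85 with 7 factors and not well above background with 8 factors. Of the 9 markers, 9 were at least 2-fold lower in each induced culture than in primary cells. With these marker signals the data go against the name of these cultures, which are called 7-factor and 8-factor cultures here. Summed over 10 fibroblast markers the signal was 381, 251 and 117 times the 75th percentile in the 7-factor, 8-factor and primary cultures. The primary culture also held RNA of macrophage markers (9 genes, 88.3 times against 0.24 and 0.21). Of these, 9 were well above background in primary cells, 9 with 7 factors and 8 with 8 factors.

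Trp53 was read by a pair of probes that carry the same accession. The brighter, spotted 10 times, gave levels of 1.47 ± 0.08 (SD of 10 copies on 1 array) with 7 factors, 1.28 ± 0.11 with 8 factors and 0.63 ± 0.04 in primary cells. Its copies on the primary array ended at 0.73, below the lowest copy of either induced array, 1.33 and 1.04. Copies are repeat spots of 1 RNA sample on 1 array, so their spread holds no variation between cultures, here and below. How many of all probes spotted 10 times have copies that do not overlap between arrays was not counted. The differences of 0.84 and 0.65 against primary cells nonetheless stayed under 2-fold (1.79-fold and 1.56-fold). The dimmer probe gave -0.66, -1.75 and 1.44, the reverse order, with primary cells highest. It was lower by 2.10 on the log2 scale (4.28-fold) with 7 factors and by 3.18 (9.08-fold) with 8 factors. Such a gap between probes of 1 gene was uncommon on these arrays. The Trp53 probes lay 2.94 apart for 7 factors against primary cells, a gap met by 4.01% of 4987 genes with several measured probes, whose median gap was 0.94. With 8 factors the gap was 3.83, met by 1.06% of 4996 genes. Probe sequences were not analysed here, so which stretch of the transcript each probe reads is not known, and no direction is given for Trp53 RNA. Its level also says little about p53 activity, which is set largely by protein stability.

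Mdm2, the ligase that degrades p53, differed little by its brighter probe, with levels of 1.65, 1.85 and 1.23 in the 7-factor, 8-factor and primary cultures. The primary culture was lowest, and the differences were 0.42 and 0.62 (1.33-fold and 1.54-fold). The dimmer probe, spotted 10 times, gave -1.83 ± 0.08, -0.995 ± 0.11 and -1.15 ± 0.08 (SD of copies). By this probe the 7-factor culture was lowest and its copies, up to -1.66, did not reach those of the other arrays, while copies of the 8-factor and primary arrays overlapped. Neither probe passed 2-fold in any comparison. Mdm4, the relative of Mdm2 that blocks p53 without degrading it, differed from primary cells by 0.03 and -0.44 by its brightest probe. Its other probes gave 0.58 and 0.71, and 1.68 and 1.33, so the probes disagree on its direction with 8 factors.

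**Figure D1:**
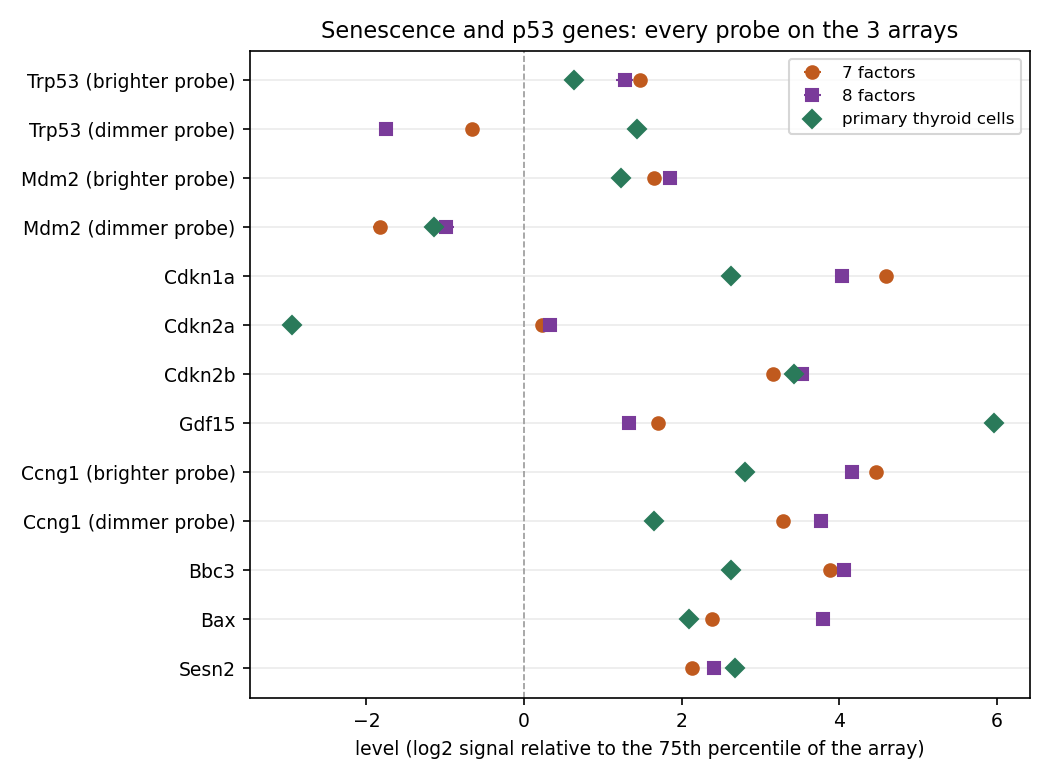
Level of each of the 13 probes on the 3 arrays, in log2 units above or below that percentile (dashed line at 0); bars show the SD over copies of a probe where it was spotted 10 times, and many are smaller than the symbol. Cdkn1a, Cdkn2a, Ccng1 and Bbc3 have both induced cultures above the primary culture, Gdf15 has the primary culture far above at 5.97, and the Trp53 probes show opposite orders.

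Of the 3 inhibitors of the cell cycle among the 10 genes, Cdkn2a differed most. Its probe, spotted 10 times, read 0.23 ± 0.05 with 7 factors and 0.33 ± 0.06 with 8 factors (SD of 10 copies), and -2.95 ± 0.08 in primary cells (SD of 9 copies, 1 being marked as an outlier). The copies ran from 0.16 to 0.32, from 0.21 to 0.41 and from -3.08 to -2.82, so the induced arrays overlapped each other and lay far above the primary array. The differences were 3.18 with 7 factors, with a scanner error of 0.22, and 3.28 with 8 factors. The scanner error is the reading error that the scanner software assigns, and it covers neither culture nor labelling. These were the 395th highest of 14977 differences and the 328th highest of 14985. The primary signal was low, 65.2 units before scaling beside a 75th percentile of 504. With another background correction (normexp) the differences were smaller, 2.14 with 7 factors and 2.23 with 8 factors. RefSeq lists 2 transcript forms of the gene, one for Ink4a and one for Arf, and which of them the probe reads is not known here. In a bulk culture, a larger share of expressing cells and more RNA per cell cannot be told apart, here and in every result below.

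Cdkn1a, a classic p53 target that encodes an inhibitor of cyclin-dependent kinases, was higher in the induced cultures. Levels were 4.59 ± 0.03 (10 copies), 4.03 ± 0.06 (10 copies) and 2.63 ± 0.03 (9 copies) in the 7-factor, 8-factor and primary cultures. The copies of the 3 arrays, repeat spots of 1 sample each, did not overlap. They ended at 2.67 in primary cells, lay between 3.94 and 4.13 with 8 factors and began at 4.55 with 7 factors. The difference from primary cells was 1.96 (3.89-fold) with 7 factors and 1.40 (2.64-fold) with 8 factors. The 8-factor culture was lower than the 7-factor culture by 0.56 (1.48-fold), under the 2-fold mark.

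Cdkn2b, the Ink4 gene beside Cdkn2a, did not follow its neighbour. Its levels of 3.16, 3.52 and 3.43 placed the primary culture between the induced ones. The differences from primary cells were -0.27 with 7 factors and 0.09 with 8 factors, both close to the scanner error of 0.20 or below it.

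The relatives of these inhibitors gave varied values. Cdkn1c, a kinase inhibitor of the Cdkn1a family and an imprinted gene, stood at 2.33, 1.31 and -2.22 and was 23.5-fold and 11.6-fold higher in the 7- and 8-factor cultures than in primary cells. Cdkn1b, the remaining gene of that family, was within 2-fold in every comparison. Of the other Ink4 genes, Cdkn2c differed from primary cells by 0.29 and 0.00. Cdkn2d was at 0.24, 0.84 and 1.77, lowest in the induced cultures, with differences of -1.53 and -0.92. The Ink4 genes thus had no common direction, with Cdkn2a higher, Cdkn2d lower and Cdkn2b and Cdkn2c near the primary level, although without scaling between the arrays all 4 lay higher in both induced cultures.

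**Figure D2:**
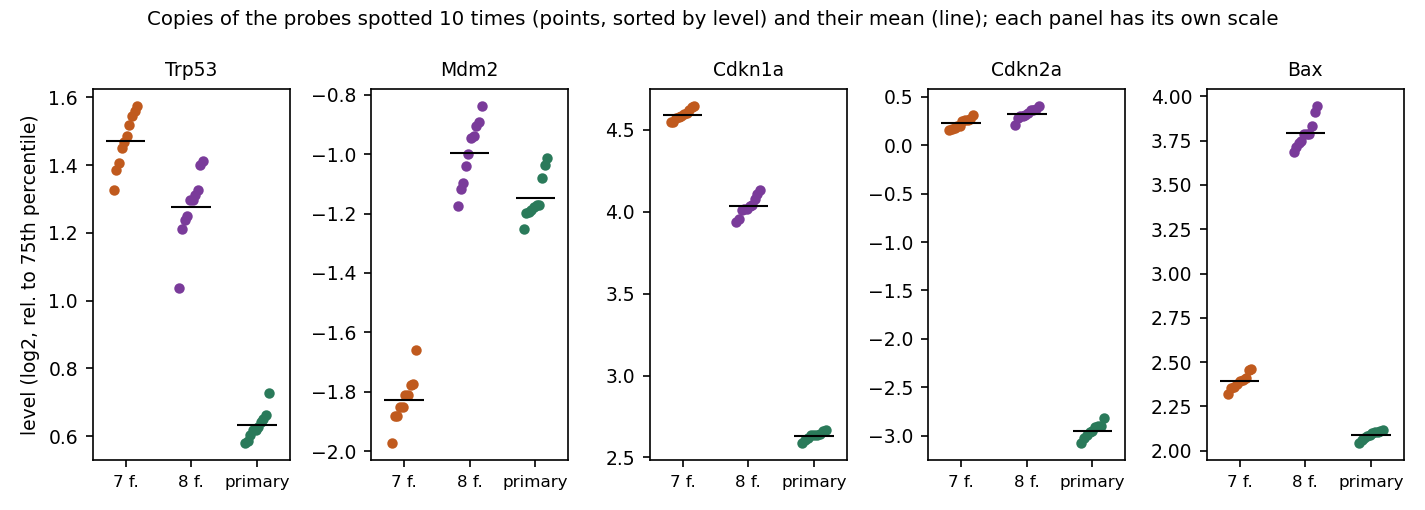
Levels of single copies (points, sorted by level within an array) of the 5 probes spotted 10 times, with the mean of each array as a line; the vertical axis is the level on the same scale, and each panel has its own range. For Mdm2 this is the dimmer probe. Cdkn2a copies of the primary array lie between -3.08 and -2.82, all others above 0, and Bax copies of the 8-factor array lie between 3.69 and 3.95, above all others.

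Of the genes that promote cell death, Bbc3 encodes Puma, which disarms the protective BCL2 proteins, and Bax forms pores in the mitochondria. Bbc3 levels were 3.88 with 7 factors, 4.05 with 8 factors and 2.63 in primary cells. Both induced cultures were higher, by 1.25 (2.38-fold) and 1.42 (2.68-fold), and differed from each other by 0.17.

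Bax separated the 2 induced cultures. Its probe, spotted 10 times, gave 2.39 ± 0.05 with 7 factors (9 copies), 3.79 ± 0.08 with 8 factors (10 copies) and 2.09 ± 0.02 in primary cells (10 copies). Copies of the 8-factor array began at 3.69, far above the highest copy of the 7-factor array, 2.46. The 8-factor culture was thus 2.64-fold higher than the 7-factor culture, the 348th highest of 16249 differences between them. Against primary cells the difference was 1.71 with 8 factors and 0.30 (1.23-fold) with 7 factors. The 2 induced arrays share slide and scan, but each is 1 culture, so variation between cultures and the addition of Hhex cannot be told apart. Bak1, the pore protein that can stand in for Bax, differed by 0.40 and 0.12 from primary cells by its brighter probe (-0.40 and -0.43 by the other) and was lower by 0.28 with 8 than with 7 factors. Pmaip1, which encodes Noxa and is also a p53 target, differed from primary cells by 0.08 and 0.01.

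Ccng1, the p53 target that encodes cyclin G1 and acts back on Mdm2, was higher in both induced cultures by both of its probes. The brighter gave 4.47, 4.17 and 2.80 in the 7-factor, 8-factor and primary cultures, differences of 1.66 (3.17-fold) and 1.36 (2.57-fold). The dimmer gave 3.28, 3.77 and 1.65, differences of 1.64 and 2.12. The probes differed only on the order of the induced cultures, which were 0.30 lower by the one and 0.49 higher by the other with 8 than with 7 factors. Ccng2, its relative, was higher than in primary cells by 0.84 and 0.79, under 2-fold.

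Sesn2 encodes a sestrin that senses leucine and restrains the growth kinase complex mTORC1. Its levels of 2.13, 2.41 and 2.67 put primary cells highest, with differences of -0.55 and -0.27 that stayed under 2-fold. Sesn1, the sestrin most tied to p53, was at 2.33, 1.77 and 3.08 and was lower by 0.75 with 7 factors and by 1.31 (2.49-fold) with 8 factors. By its dimmer probes Sesn1 was lower by 1.59 and 2.01 with 7 factors and stayed under 2-fold with 8 factors, so its probes disagree on which culture passes 2-fold and on the order of the induced cultures. Sesn3 differed by -0.27 and -0.50. By the brightest probes all 3 sestrins lay lower in the induced cultures, 1 of these 6 differences passed 2-fold, and all 6 turn positive without scaling between the arrays.

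Gdf15 had the largest difference of the 10 genes. Its level was 1.70 with 7 factors, 1.34 with 8 factors and 5.97 in primary cells. The differences were -4.27 and -4.63, each with a scanner error of 0.20, the 567th and 451st lowest among all genes compared. The processed signal itself, before any scaling, was 7091, 6400 and 31578 units, so the primary culture was highest on the array whose signals were otherwise lowest. Gdf15 thus ran against the p53 targets Cdkn1a, Ccng1 and Bbc3, but other p53 targets went both ways. By the scaled levels, 5 of 37 others were at least 2-fold lower and 15 higher with 7 factors, and 8 lower and 17 higher with 8 factors. The macrophage and thyroid markers named above moved with Gdf15, high in primary cells and far lower in the induced cultures, and their part in its difference was not tested.

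Over the 10 genes, each taken by its brightest probe, 4 were at least 2-fold higher and 1 lower with 7 factors than in primary cells, when 19.1% of 16152 genes compared were higher and 27.1% lower. With 8 factors 5 were higher and 1 lower, when 17.8% of 16161 genes were higher and 27.5% lower. The median difference was 0.63 and 1.00, and that of all genes was -0.05 and -0.10. The genes lay in the upper 7 of 10 bins of signal, where the median difference of all genes ran from -0.13 to 0.27. Both comparisons use the same primary array, so their likeness is no second measurement.

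Between the induced cultures only Bax of the 10 passed 2-fold upward and none downward, when 4.54% of 16260 genes were higher and 4.04% lower with 8 factors. The median difference was 0.14 over the 10 genes and -0.09 over all. Counted by probe, the dimmer Trp53 probe was also past 2-fold, lower by 1.08. Apart from these, the probes differed between the induced cultures by -0.56 to 0.83.

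**Figure D3:**
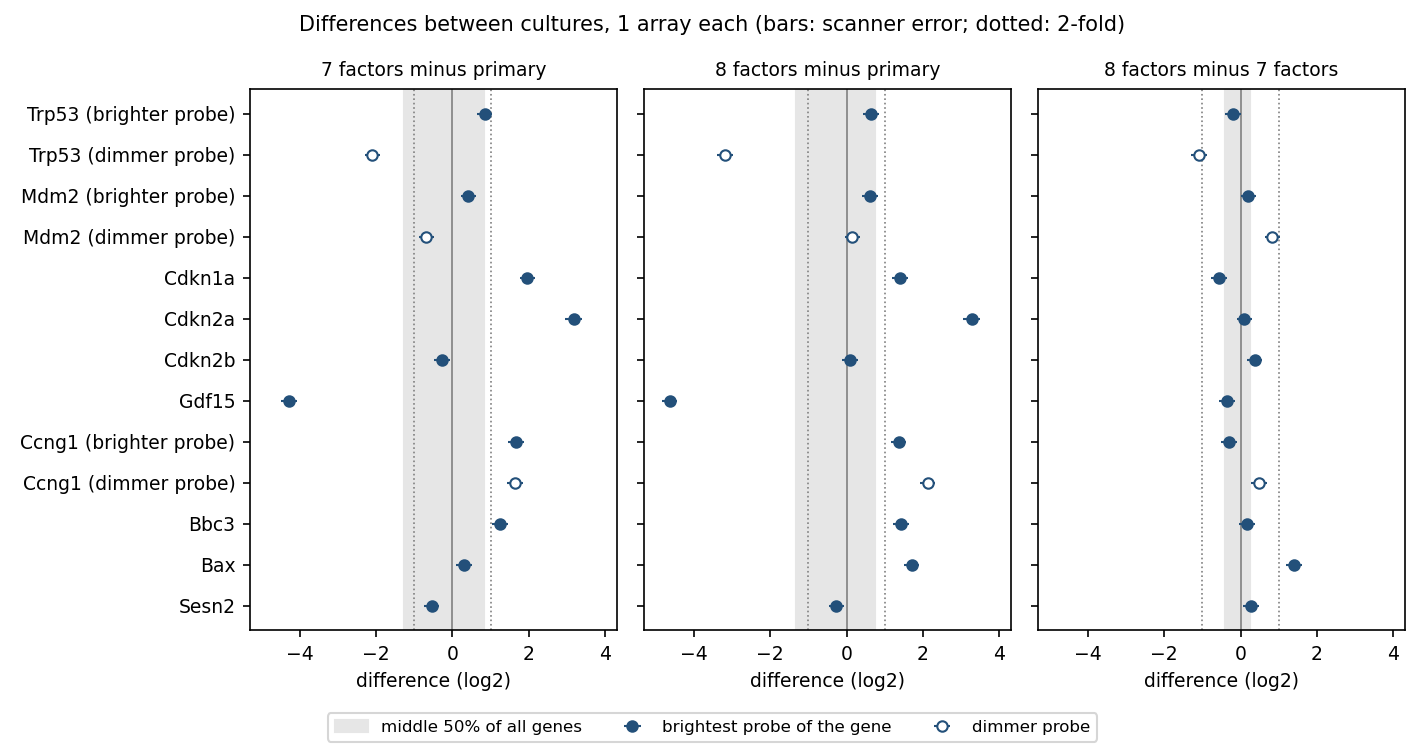
Differences in log2 level for each probe in the 3 comparisons; bars are the scanner error, dotted lines mark 2-fold, and the grey band holds the middle 50% of all genes compared (from -1.28 to 0.83 with 7 factors against primary cells). Cdkn2a at 3.18 and 3.28 and Gdf15 at -4.27 and -4.63 lie farthest from 0, and Bax at 1.40 is the one probe above 2-fold between the induced cultures.

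The wider pathway was read from 10 gene lists, and because the scaling of the arrays moves their counts, the number higher and lower without any scaling is given beside each. By the scaled levels 19.1% of all genes compared were higher and 27.1% lower with 7 factors, and 17.8% and 27.5% with 8 factors. Over the 10 lists together these shares were 22.2% and 29.8% with 7 factors, and 24.9% and 28.4% with 8 factors. Without scaling, 69.4% of all genes compared were higher and 7.06% lower with 7 factors, and 72.5% and 6.05% with 8 factors. Of 37 other p53 targets with a probe, 15 were at least 2-fold higher and 5 lower with 7 factors than in primary cells, and 17 higher and 8 lower with 8 factors (32 and 0, and 34 and 0, without scaling). Their median differences were 0.44 and 0.69. Slc19a2, a thiamine transporter, had levels of 3.77, 4.27 and 0.83 in the 7-factor, 8-factor and primary cultures and was 7.65-fold and 10.8-fold higher in the induced ones. Psrc1, a spindle protein, differed by 2.79 and 2.67, and Zmat3, an RNA-binding p53 target, by 2.36 and 1.71. The receptors Eda2r and Fas were also higher, by 2.66 and 2.15 and by 1.85 and 2.53. Apaf1, the scaffold of the apoptosome on which Bax and Bbc3 converge, was at 0.57, 1.61 and -1.34 and so was higher by 1.91 and 2.95, while its lowest measured probe gave -0.17 and 1.08. Its brightest probe was also 1.04 higher with 8 than with 7 factors, the direction of Bax, but its dimmest probe gave -0.077. Among the lower ones Tgfa, a ligand of the EGF receptor, was at -5.06, -4.04 and -2.94 and was 4.34-fold and 2.14-fold lower.

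The p53 family and its regulators split, with 5 of 17 higher and 4 lower with 7 factors and 4 higher and 3 lower with 8 factors (14 and 2, and 15 and 2, without scaling). Among the higher ones were the kinases Atm, by 2.76 and 2.75, Atr, by 1.98 and 1.54, and Chek1, by 1.56 and 1.89. The other Atm probe gave 0.98 and 1.39, and the lowest values over the Atr probes were 1.41 and 0.64. Chek2, a kinase that Atm activates, was within 2-fold at -0.54 and 0.50. The p53 relatives were the lowest. Trp63, the family member that marks basal and squamous epithelium, stood at -0.69, -1.12 and 2.84, an 11.6-fold and 15.6-fold difference. Trp73 was at -4.26, -4.59 and -1.11 and was lower by 3.14 and 3.48. The summed signal of 6 epithelial markers was 133, 102 and 711 times the 75th percentile in the same order, and its part in these differences was not tested.

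In the list of kinase inhibitors and the RB pathway, 2 of 18 were higher and 2 lower with 7 factors, and 6 higher and 1 lower with 8 factors (16 and 0, and 18 and 0, without scaling). E2f2, a transcription factor held by RB proteins, was higher by 2.79 and 2.28, while its relative E2f1 was lower by 1.39 and 0.74. Ccne2, a cyclin that E2F factors induce, was at -2.54, -0.39 and -3.24 and was 4.42-fold higher with 8 than with 7 factors. Of 12 proliferation genes, 5 were at least 2-fold higher and 0 lower with 7 factors, and 6 higher and 0 lower with 8 factors. Their medians were 0.80 and 0.89 (12 and 0 in both without scaling). Mki67 was higher by 1.68 and 1.74, and Ccna2, a cyclin of DNA replication, by 1.49 and 1.86. Bub1, a spindle checkpoint kinase, was higher by 1.86 and 2.17 by its brightest probe and differed by -0.69 and -1.70 by its dimmest. These are averages over a culture and do not say whether the same cells held RNA of proliferation genes and of Cdkn1a or Cdkn2a.

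The BCL2 family gave 2 higher and 4 lower of 12 with 7 factors and 0 higher and 5 lower of 11 with 8 factors (7 and 1, and 6 and 1, without scaling). The lower ones included the killers Bik, at -5.15, -5.06 and -1.40, and Bmf, at 0.84, 0.28 and 3.59. The protective Bcl2 was also lower, by 1.97 and 1.86, as was Bad, by 2.51 and 2.02. Mcl1, another protector, was higher by 1.17 with 7 factors and by 0.89 with 8 factors, and Bid by 1.29 and 0.75. The other Mcl1 probe gave 0.41 and 0.54. The list thus held killers and protectors in both directions, and Bbc3 and Bax were on the higher side.

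The senescence-associated secretory genes, factors that senescent cells release, were mostly lower in the induced cultures: 20 of 32 were lower and 5 higher with 7 factors, and 17 lower and 4 higher with 8 factors (12 higher and 12 lower, and 14 and 9, without scaling). The medians were -2.36 and -1.51. The 5 higher with 7 factors were Igfbp4, Igfbp3, Igfbp5, Serpine2 and Timp2, and all but Timp2 were also higher with 8 factors. Igfbp4 was 12.7-fold and 7.85-fold higher, and Igfbp3 10.2-fold and 7.51-fold. Mmp9, a gelatinase, was at -5.57, -5.72 and 3.78 and was 653-fold and 725-fold lower. The cytokine Il1b and the macrophage elastase Mmp12 were not well above background in either induced culture. Against the lowest signal well above background on those arrays, Il1b was at least 315-fold and 344-fold lower and Mmp12 at least 267-fold and 292-fold lower. Csf2 was at least 179-fold lower with 7 factors and 140-fold lower with 8 factors. The matrix proteases Mmp10 and Mmp3 differed between the induced cultures: they were 4.71-fold and 3.47-fold higher with 8 than with 7 factors, and Mmp3 at 3.68 with 8 factors was near the 3.85 of primary cells. All 9 macrophage markers were lower in both induced cultures, with their summed signal at 88.3 times the 75th percentile in primary cells against 0.24 and 0.21, and several genes of this list are also made by macrophages. Their part in the list's difference was not tested.

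Genes linked to senescence in the nucleus and lysosome were split, 3 of 13 higher and 4 lower in both comparisons (9 and 1, and 10 and 1, without scaling). Lmnb1, the lamin that senescent fibroblasts lose, was at 3.41, 3.38 and 1.59 and so was higher by 1.81 and 1.79. H2ax, the histone that marks DNA breaks when phosphorylated, was higher by 1.48 and 1.84. Ctsd, a lysosomal protease, was lower by 2.31 and 2.54, and Dpp4, a surface peptidase found on senescent fibroblasts, by 3.37 and 3.44. Hmgb1, a chromatin protein, was lower by 1.21 and 2.00 by its brightest probe, while its highest probe gave 0.87 and 0.61, so no direction is given for it.

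Genes known to act on the Cdkn2a and Cdkn2b locus gave 6 of 22 higher and 7 lower with 7 factors and 7 higher and 8 lower with 8 factors (16 and 0 in both without scaling). Kdm6b, which removes the Polycomb mark from this locus, was higher by 2.07 and 1.63. Tbx3, a repressor of Arf, was at 1.06, 1.25 and 3.97 and so was lower by 2.91 and 2.72. The part of any of these genes in the Cdkn2a difference was not tested. Twist1, another repressor of the pathway, was higher by 2.34 and 2.39, and Rnf2, a Polycomb ubiquitin ligase, by 1.79 and 1.48. Myc was higher by 2.56 and 2.26 by its brightest probe, while its other probes ran down to -2.44 and -1.76. Since c-Myc was delivered by virus, its own gene and the virus cannot be told apart. Activators and repressors were found in both directions, and the medians of -0.13 and -0.17 lay near that of all genes.

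Gdf15 and Sesn2 are also induced by ATF4, the transcription factor of amino acid and protein folding stress. The ATF4 list held 17 genes, Atf4 itself among them. Of these, 9 were lower and 0 higher with 7 factors and 7 lower and 1 higher with 8 factors, with medians of -1.13 and -0.50 (8 higher and 2 lower, and 10 and 1, without scaling). Ppp1r15a, which restarts translation after stress, was at -3.86, -2.11 and 0.74 and was 24.2-fold and 7.20-fold lower. Slc7a11, the cystine carrier, was 19.1-fold and 11.3-fold lower by its brightest probe, while another of its probes gave -1.32 with 7 factors. Trib3 was lower by 2.11 and 1.37, and Chac1, a glutathione-cleaving enzyme, by 2.09 and 1.54. Psat1 was the 1 higher gene with 8 factors and differed by 0.86 and 1.23, while Asns differed by -0.12 and 0.06. The part of ATF4 in the differences of Gdf15 and Sesn2 was not tested. In the sestrin and mTORC1 list 1 of 21 was higher and 4 lower in each comparison (18 and 0 in both without scaling). Prkaa2, a catalytic subunit of the energy sensor AMPK that sestrins engage, was higher by 2.80 and 1.39. Prkab1, a subunit of the same enzyme, was lower by 2.21 and 1.85, as was Castor1, an arginine sensor, by 1.72 and 1.99.

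**Figure D4:**
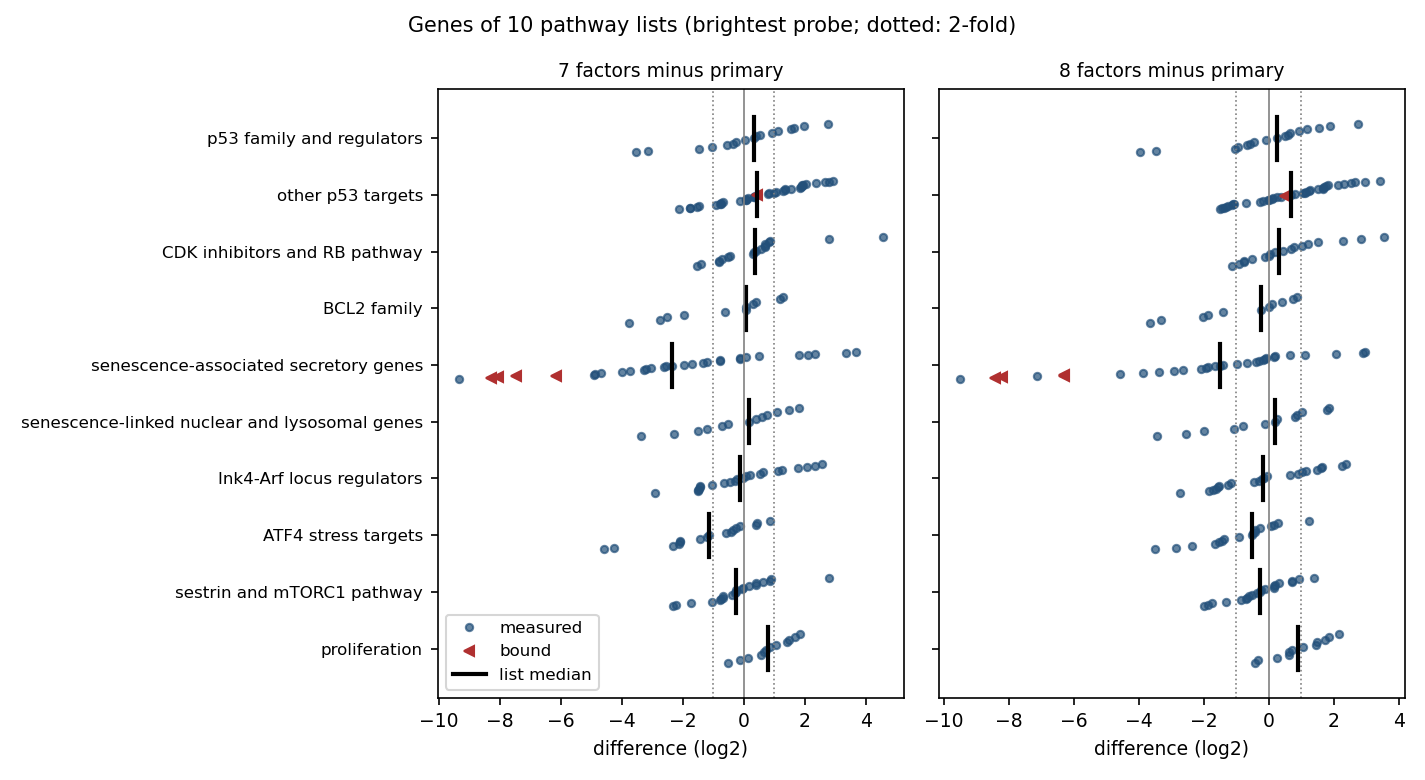
Log2 differences from primary cells for the genes of 10 pathway lists, with 7 factors (left) and 8 factors (right); each point is a gene by its brightest probe, triangles are bounds, thick bars are list medians and dotted lines mark 2-fold. The secretory list has the lowest medians, -2.36 and -1.51, and the proliferation list the highest, 0.80 and 0.89.

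Of 195 list genes compared between the induced cultures, 14 (7.18%) were at least 2-fold higher and 5 (2.56%) lower with 8 than with 7 factors, beside 4.54% and 4.04% of all genes. The secretory list had 5 higher (17.2%) and 2 lower of 29, and the other p53 targets 2 higher and 0 lower of 37. Tert, the catalytic subunit of telomerase, was at -3.33, -1.59 and -1.84 and was 3.33-fold higher with 8 factors. Ppp1r15a was 3.37-fold higher. Prkaa2 and Cdkn1c were lower, by 1.41 and 1.02.

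The processing mattered most through the scaling of the arrays. Without it every difference from primary cells moves up by 2.12 with 7 factors and by 2.33 with 8 factors, and the median of all genes moves by 2.01 and 2.21. On that scale 9 of the 10 genes were at least 2-fold higher in each induced culture and Gdf15 alone was lower, by 2.15 and 2.30. The median of the 17 genes of the ATF4 list then turned from -1.13 and -0.50 to 0.98 and 1.83, and that of the secretory list was -0.04 and 0.75. Lists are therefore described relative to the rest of the array. Scaling to the median in place of the 75th percentile moved the median of all genes by 0.30 and 0.24, and then 5 of the 10 genes were higher and 1 lower in both comparisons. Over the other alternatives Cdkn2a stayed between 2.14 and 3.48 with 7 factors, Gdf15 between -4.36 and -3.97, and Bax between 1.34 and 1.49 for 8 against 7 factors.

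**Figure D5:**
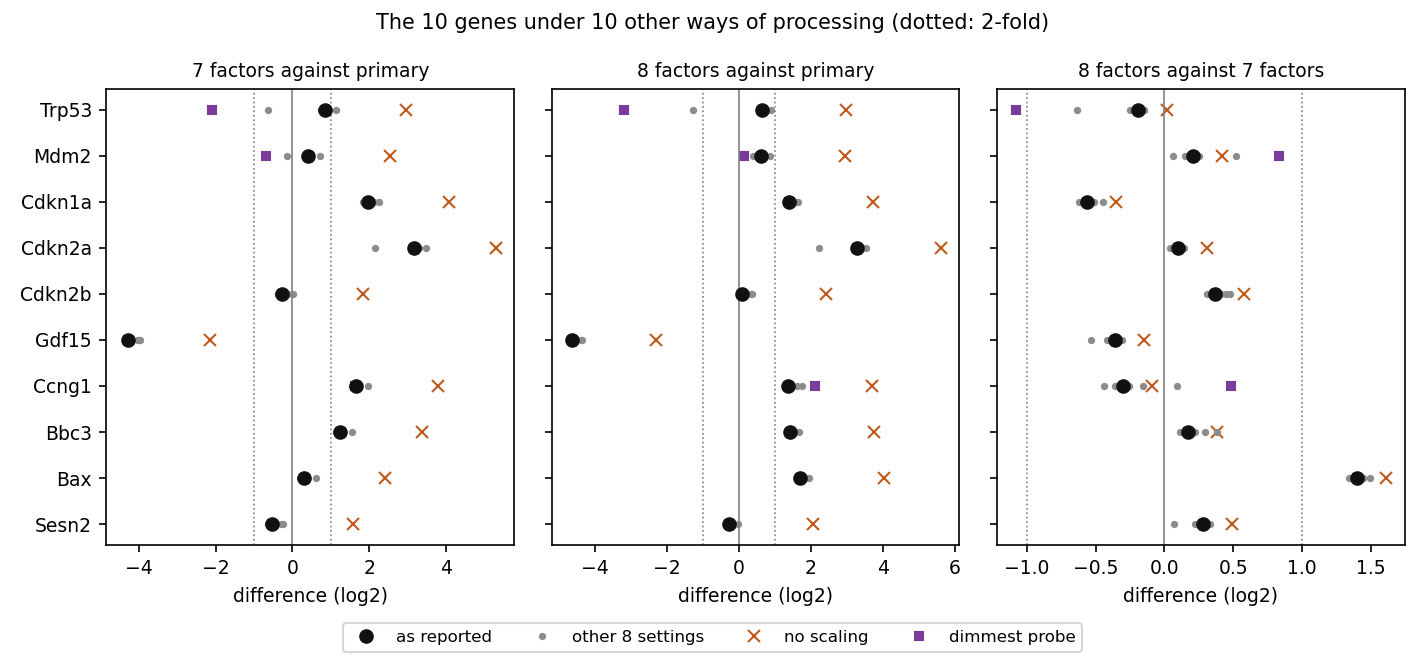
Log2 difference of each of the 10 genes as reported (black) and under 10 other ways of processing: without scaling (crosses), by the dimmest probe (squares) and 8 others (grey); dotted lines mark 2-fold. Gdf15 stays below -2 and Cdkn2a above 2 against primary cells throughout, Bax stays above 1 between the induced cultures, and Trp53 takes both signs.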

How the data were processed

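The deposited values are spot intensities of 3 one-colour arrays (4x44K, grid build mm9 per the file headers), 1 per culture, labelled with Cy3 per the labels' protocols. Background and spatial trend were subtracted by Feature Extraction 11.5.1.1 per the file headers; the submitters' processing notes name version 10.5. The deposited value table equals that processed intensity on the linear scale, unscaled (column medians 156, 186 and 45.5), although the series text names a shift to the 75th percentile.

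Here control spots and outlier-marked spots were left out, copies of a probe averaged as log2 values, and the 75th percentile of the array subtracted. Probes were named by RefSeq accession (table of GRCm38.p6, names only): 27815 of 41171 probes were named. The brightest probe stands for a gene, and a 2-fold difference was counted. Where 1 array was not well above background, the lowest signal well above background there (or the probe's own, if higher) gives a bound. The number of arrays limits the precision. The calls were tested on simulated arrays, made by copying 1 array and adding noise and known changes. Such copies hold no difference of culture, slide or background, so the simulation says nothing on those.

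The genes, the 10 lists and the motifs were chosen with earlier results of these data known, and the motifs after the promoters had been read. The genes were all named with every probe; of the lists, a subset was named of the genes with the largest differences in each comparison (up to 6, 4 and 3), and 12 nearest relatives whatever their value. Some genes of the secretory and ATF4 lists that were not 2-fold lower were named beside these. Alternatives, 10 in all, were run for scaling, background correction (normexp, offset 50, limma 3.58.1 in R 4.3.3), probe choice, filter, floor and outlier spots. Other work used Python 3.11.15, pandas 2.3.3 and numpy 2.4.6.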

Additional observations from a re-analysis of the deposited data

Results flagged for a closer look

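For 3 of the genes named here the induced cultures lay on opposite sides of the primary culture by more than the scanner error, with 1 array each, and the difference was not tested. Cdkn1b, by its brighter probe, was 0.39 higher than in primary cells with 7 factors and at -0.50 with 8 factors. The dimmer Cdkn1b probe gave -0.49 and -0.78, so it did not show the split. Chek2, a checkpoint kinase, was at -0.54 with 7 factors and at 0.50 with 8 factors. Tert was at -1.49 with 7 factors and at 0.24 with 8 factors relative to primary cells. Further genes of the lists that are not named here met the same criterion.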

How the results depend on the processing

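No paired analysis was possible because each group holds 1 array, and for the same reason no array could be left out in turn. Cdkn2a, Cdkn1a, Ccng1 and Bbc3 (higher) and Gdf15 (lower) against primary cells, and Bax with 8 factors against both other cultures, kept their direction and stayed past 2-fold in all 10 alternatives. All of these but Ccng1 have 1 probe, well above background on every array. The alternatives for probe choice, filter and floor therefore could not change them, and those for filter and floor could not change Ccng1. Without scaling, 9 of the 10 genes were higher with 7 and with 8 factors (4 and 5 as reported). Those lower numbered 2 with 7 factors by the dimmest probe, 2 with 8 factors by the dimmest probe and by the mean over probes, and 1 for 8 against 7 factors by the dimmest probe, through Trp53. List genes higher and lower went from 44 and 59 to 141 and 18 with 7 factors, and from 49 and 56 to 150 and 14 with 8 factors, without scaling. For 8 against 7 factors, list genes higher went from 14 to 24 and lower from 5 to 9 by the dimmest probe, and lower to 3 without scaling, with quantile normalization and with normexp correction.

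The added constant turned these differences from negative to positive without scaling. With 7 factors they became Bcl2 0.15, Castor1 0.39, Cdkn2d 0.59, Chac1 0.025, Hmgb1 0.90, Mmp3 0.16, Tert 0.63, Tgfa 0.0024 and Trib3 0.011. With 8 factors they became Bad 0.31, Bcl2 0.47, Castor1 0.34, Chac1 0.79, Hmgb1 0.33, Prkab1 0.48, Sesn1 1.02, Tgfa 1.23 and Trib3 0.96. E2f1, at -1.39 with 7 factors as reported, also turned positive, because the constant there was 2.12. Negative differences from primary cells under 2-fold turned positive too. By the dimmest probe, Bub1 became -0.69 and -1.70, Hmgb1 with 8 factors 0.56, and for 8 against 7 factors Apaf1 -0.077 and Tgfa -0.17; the cause was not tested. Signals near background limit Il1b and Mmp12 in both induced cultures, and Csf2 with 7 factors, to bounds.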
